A study of Homo sapiens with 12 samples.

Results

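The transcripts described here are those of 58 human genes that act in G2 and mitosis: 2 transcription factors (FOXM1, MYBL2), 5 cyclins and CDC25 phosphatases, 9 kinases, 8 kinetochore and checkpoint proteins, 10 kinesin motors, 6 spindle proteins, 3 non-kinase subunits of the chromosomal passenger complex, 5 genes of ubiquitin and separase control, 3 cytokinesis genes, 5 condensin subunits, and MKI67 with TOP2A. They were chosen by name from a gene count table of 64253 genes, and all 58 were found. SPC25 was the only name with more than 1 row, and its other row, on an alternate haplotype, held no reads. All 58 passed the filter on low counts, with at least 536 reads in every library.

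The libraries came from JEKO-1, an established human mantle cell lymphoma line that is a single model of that B cell cancer. The 4 groups, of 3 libraries each, were cells kept for 48 h in DMSO (the solvent of KPT-330), in choline salicylate (CS, a salicylate salt), in KPT-330 (selinexor, an inhibitor of XPO1 or CRM1, a receptor that carries proteins out of the nucleus), or in KPT-330 and CS together. The sources used here do not state the drug concentrations of these cultures. No label says that the 3 libraries of a group are separate cultures, so a p-value measures the spread between libraries only, and that spread may be technical. Gene positions are those of the deposited table, on hg38.

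Genes of this kind are transcribed late in the cell cycle. The cyclin-dependent kinase CDK1 with cyclin B drives entry into mitosis, Polo and Aurora kinases build the spindle and prepare the chromosomes, kinetochores attach chromosomes to microtubules, and the anaphase-promoting complex with separase ends the attachment of sister chromatids. The MuvB complex silences their promoters in resting cells and, joined by B-MYB (the product of MYBL2) and FOXM1, activates them in proliferating cells. MuvB is known to bind a short promoter element named CHR, and the factor NF-Y binds CCAAT boxes upstream of it. In bulk RNA, fewer cells in G2 and mitosis and less RNA of these genes per cell cannot be told apart.

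Promoters of 8 of the genes are shown first, since CHR and CCAAT elements are what promoters of this class are known to share. Each line gives the 120 bases before the start site, from RefSeq (build GRCh38.p14), read 5′ to 3′ on the strand of the gene. Capitals mark the letters searched, on both strands. For CHR these were TTTGAA or TTCGAA, and for the NF-Y box CCAAT, which reads ATTGG where it lies on the other strand. Of the letters searched, the first 4 hold both kinds, KIF20A and NCAPH hold CCAAT only, and MYBL2 and CENPE hold neither in these bases. No other form of either element was searched, so the lack of a match does not show that an element is absent.
CCNB2, chr15:59105026-59105145 (plus strand): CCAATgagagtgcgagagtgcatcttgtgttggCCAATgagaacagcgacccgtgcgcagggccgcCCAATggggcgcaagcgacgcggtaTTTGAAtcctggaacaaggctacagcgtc
PLK1, chr16:23678769-23678888 (plus strand): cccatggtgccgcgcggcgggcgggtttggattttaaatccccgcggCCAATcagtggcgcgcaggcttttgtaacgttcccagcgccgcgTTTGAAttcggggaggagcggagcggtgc
CDC20, chr1:43358861-43358980 (plus strand): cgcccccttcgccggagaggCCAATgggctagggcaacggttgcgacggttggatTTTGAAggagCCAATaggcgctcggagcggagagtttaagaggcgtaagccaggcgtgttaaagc
MKI67, chr10:128126424-128126543 (minus strand): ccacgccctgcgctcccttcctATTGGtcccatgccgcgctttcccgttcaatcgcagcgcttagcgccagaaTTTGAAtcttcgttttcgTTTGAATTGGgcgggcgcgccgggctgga
KIF20A, chr5:138178992-138179111 (plus strand): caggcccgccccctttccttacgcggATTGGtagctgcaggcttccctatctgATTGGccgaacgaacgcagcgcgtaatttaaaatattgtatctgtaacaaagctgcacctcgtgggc
NCAPH, chr2:96335646-96335765 (plus strand): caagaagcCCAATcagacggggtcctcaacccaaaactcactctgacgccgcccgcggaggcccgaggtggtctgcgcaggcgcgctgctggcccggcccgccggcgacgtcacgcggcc
MYBL2, chr20:43666994-43667113 (plus strand): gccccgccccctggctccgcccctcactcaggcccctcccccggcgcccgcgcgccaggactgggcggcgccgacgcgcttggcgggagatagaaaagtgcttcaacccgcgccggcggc
CENPE, chr4:103198344-103198463 (minus strand): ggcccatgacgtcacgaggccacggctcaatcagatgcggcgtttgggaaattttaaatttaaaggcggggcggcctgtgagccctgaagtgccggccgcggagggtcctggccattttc

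In PLK1 and CCNB2 the CHR letters begin 29 bases before the start site. MKI67 has CHR letters at 47 and at 29 bases before it, and the second match shares 1 base with a CCAAT match on the other strand. RefSeq windows of 300 bases (250 before to 50 after the start) were matched by symbol for 50 of the 58 genes. CHR letters stood in a window of 39 of these 50 genes (78%), against 19.5% of 27305 genes with a window. CCAAT letters stood in 39 of 50 (78%), against 39.7% of all genes. Over the 64 windows of the 50 genes, CHR letters were most frequent in the 25 bases before the start site (20.3% of windows, against 1.26% of all windows), and CCAAT letters between 75 and 50 bases before it (39.1% against 7.62%). A match describes the letters only. With KPT-330 the median log2 fold change was -0.77 for the 39 genes with CHR letters and -0.93 for the 11 without, and with both drugs against DMSO it was -1.42 and -1.60. This order depended on the window. With only the 250 bases before the start searched, 28 genes had CHR letters and 22 did not. Their medians were -0.77 and -0.81 with KPT-330, and -1.47 and -1.42 with both drugs against DMSO. These differences were not tested.

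**Figure D1:**
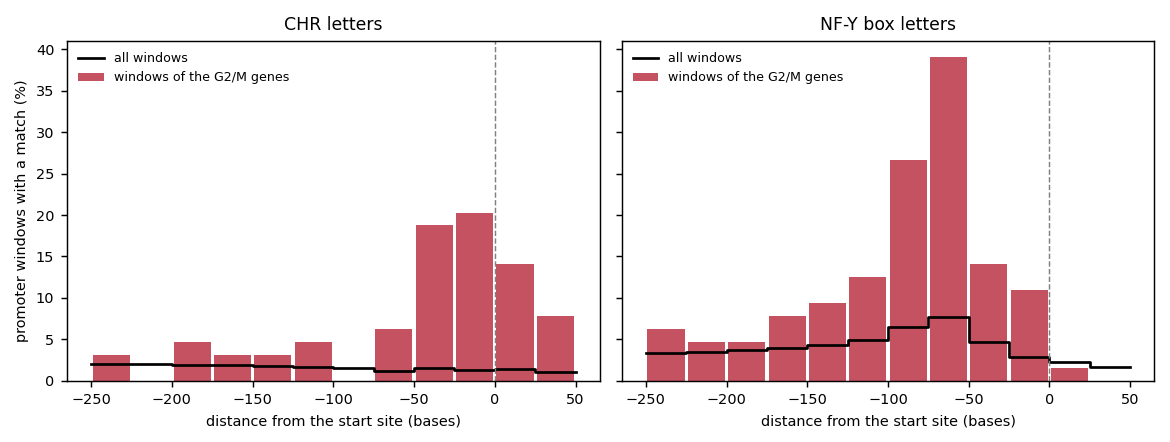
Share of 300-base promoter windows (percent, y axis) that hold CHR letters (left) or NF-Y box letters (CCAAT, right) in each 25-base bin of distance from the start site (x axis). Bars are the 64 windows of the G2/M genes and the black line is all windows; the bars peak just before the start site for CHR (20.3%) and between 75 and 50 bases before it for the NF-Y box (39.1%).

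Total counts ran from 35325563 to 59490178 reads per library. Levels are CPM, the read counts scaled to library size with TMM factors. Log2 fold changes, their approximate standard errors (after ±) and Benjamini-Hochberg adjusted p-values come from the edgeR quasi-likelihood test over 19460 genes. A gene was called at an adjusted p of 0.05 or less. B cell markers, with SOX11 and CCND1 of mantle cell lymphoma among them, summed to between 2298 and 3302 CPM per library, and T cell, myeloid and epithelial markers to at most 21.1, 4.39 and 3.34 CPM. The T cell sum was highest with KPT-330 (19.1 to 21.1 CPM) and lowest with both drugs (4.40 to 5.55 CPM). Its part in the results was not tested. Most of it was TRAC, at a mean of 11.1 CPM in DMSO, 8.24 with CS, 17.4 with KPT-330 and 3.56 with both drugs. MPO and KRT19 had 0 reads, and no library had over 4 of CD2 or 8 of CD3D. Other markers had more, with up to 67 reads per library of CD8A, 50 of CD3E, 139 of LYZ and 116 of EPCAM. Libraries differed in how log2 level followed GC content. The slope per 10 percentage points of GC was 0.209 ± 0.017 (SD, n = 3) with KPT-330, -0.119 ± 0.201 in DMSO, -0.0907 ± 0.145 with CS and 0.00108 ± 0.141 with both drugs. Scaling by library size alone in place of TMM moved the median of all genes from 0.04 to 0.20 (log2) for KPT-330 against DMSO and from 0.04 to 0.23 for both drugs against DMSO.

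Most of the G2/M genes were lower with KPT-330, few were lower with CS alone, and most were lower still with both drugs than with KPT-330 alone. The summed level of the 58 genes was 13366 ± 745 CPM in DMSO (SD, n = 3), 12477 ± 324 with CS, 7960 ± 39.0 with KPT-330 and 5216 ± 168 with both. With KPT-330 against DMSO, 53 of 58 genes fell and 1 rose, where 23.8% of all tested genes were called lower and 24.7% higher; the median log2 fold change was -0.77, against 0.04 for all tested genes. With CS against DMSO, 7 fell, where 5.13% of all genes were called lower and 3.76% higher, and the median was -0.12 against -0.0082. With both drugs against DMSO, 56 fell (26.2% of all genes called lower and 29.3% higher), with a median of -1.46 against 0.04. With both drugs against KPT-330 alone, 55 fell (17.9% of all genes called lower and 19.7% higher), with a median of -0.63 against -0.0013. With both drugs against CS alone, 56 fell (21.7% of all genes called lower and 26.1% higher), with a median of -1.27. The study also set CS against KPT-330, where 50 of the 58 were higher with CS and BUB3 was lower, beside 20.2% and 22.6% of all genes.

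**Figure D2:**
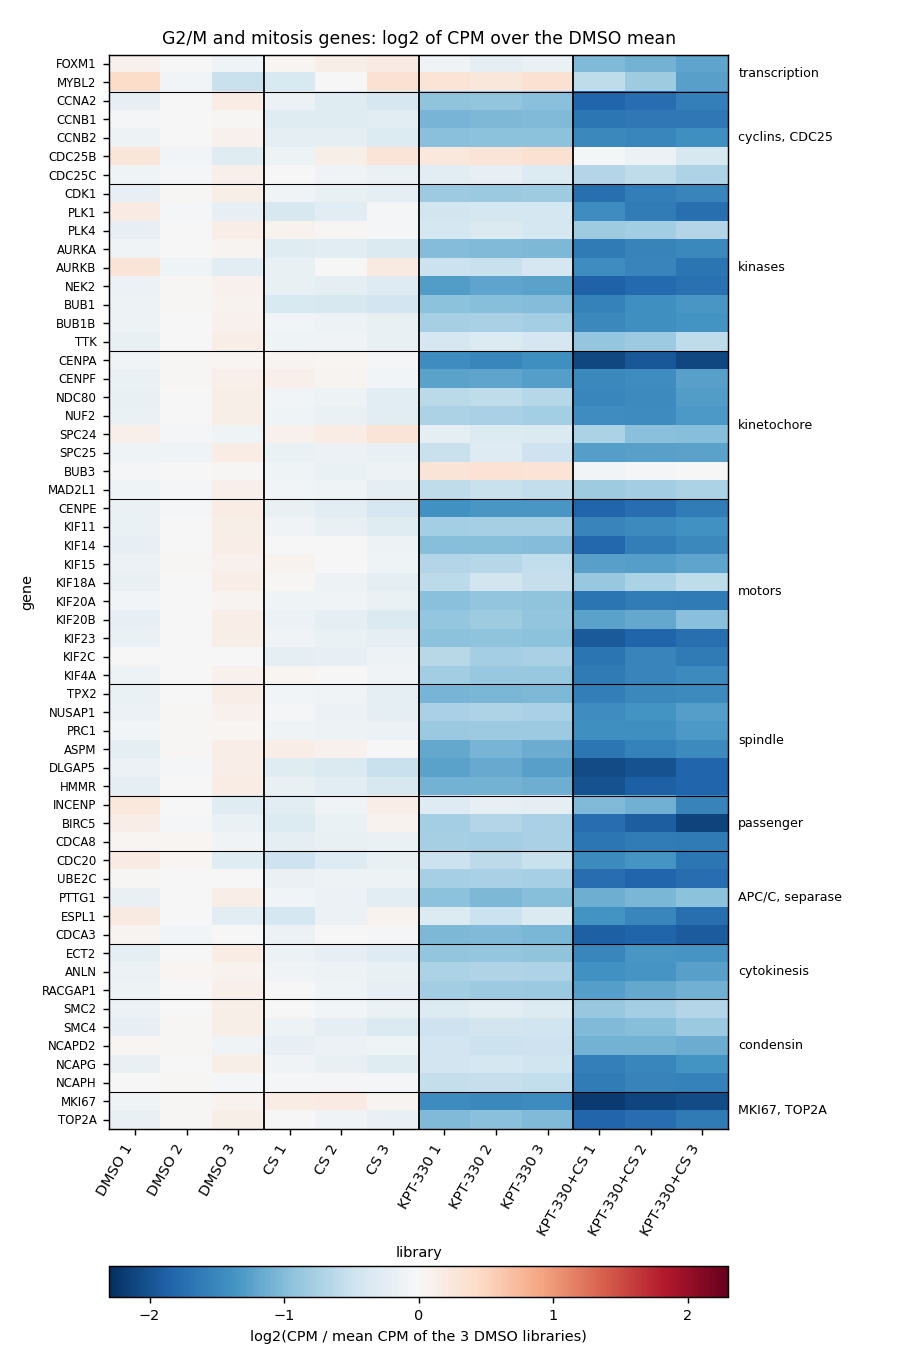
Each row is 1 of the 58 genes, grouped by role, and each column 1 of the 12 libraries; colour is the log2 of CPM over the mean CPM of the 3 DMSO libraries (blue lower, red higher). The KPT-330 columns are blue for most genes and the KPT-330+CS columns darker, while BUB3, CDC25B and MYBL2 are light red with KPT-330.

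No gene of the 58 was called higher with CS or with both drugs (against DMSO, KPT-330 or CS), by edgeR, DESeq2, the edgeR likelihood ratio test or limma voom; at an unadjusted p of 0.05, edgeR gave 2 higher with CS and 0 with both. The libraries of the 2 groups did not overlap for 54 genes with KPT-330 against DMSO (53 lower and 1 higher, where 27.4% of all genes were lower and 30.3% higher without overlap). They did not overlap for 15 genes with CS (all lower, against 12% of all genes), 56 with both drugs against DMSO (all lower, against 25.9%), and 55 with both against KPT-330 (all lower, against 29.1%). The 3 comparisons with DMSO share the DMSO libraries.

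The transcription factors FOXM1 and MYBL2 were not called with KPT-330 alone and fell with both drugs. FOXM1 (ENSG00000111206, chr12:2857681-2877040, minus strand), a forkhead factor that activates G2/M promoters, stood at 159.8, 148 and 140.0 CPM in DMSO, 154, 164 and 171 with CS, 141, 127 and 135 with KPT-330, and 73.8, 70.5 and 64.2 with both drugs. The KPT-330 libraries overlapped the DMSO libraries at their upper end, and the 3 libraries with both drugs were lower than all others. The log2 fold change was -0.15 ± 0.069 with KPT-330 (adjusted p = 0.0885) and -1.10 ± 0.071 with both drugs (adjusted p = 2.66e-08). MYBL2 (ENSG00000101057, chr20:43667019-43716496, plus strand), which encodes B-MYB, stood at 358, 254 and 187 CPM in DMSO, 208, 268 and 341 with CS, 329.7, 319.7 and 341 with KPT-330, and 177, 150.1 and 112 with both drugs. Its DMSO and CS libraries spread widely, the KPT-330 libraries lay within the DMSO range, and the libraries with both drugs lay below it. The log2 fold change was 0.31 ± 0.22 with KPT-330 (adjusted p = 0.255), -0.86 ± 0.22 with both drugs (adjusted p = 0.00452) and -1.17 ± 0.22 for both against KPT-330 (adjusted p = 0.00113). Without DMSO replicate 1, the MYBL2 call with both drugs was lost by a narrow margin, at a log2 fold change of -0.59. The longest transcripts of these genes hold 55.7% and 60.5% GC. With levels corrected for GC over all libraries, FOXM1 with KPT-330 was -0.40 ± 0.048 (adjusted p = 4.49e-06) and MYBL2 -0.15 ± 0.069 (adjusted p = 0.0938).

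**Figure D3:**
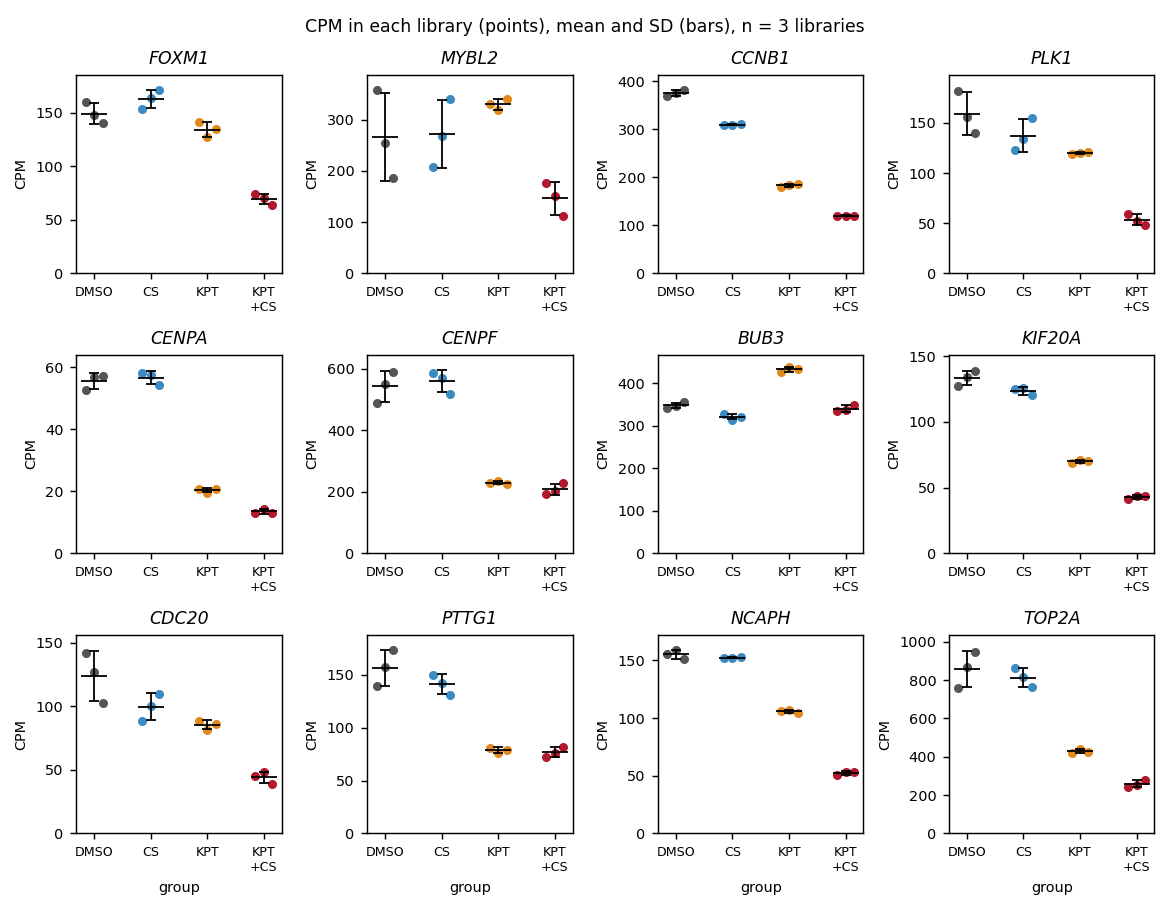
CPM (y axis, linear and from 0) of 12 of the genes in each library (points) by group (x axis), with mean and SD over 3 libraries. FOXM1 and MYBL2 are low only with both drugs, CENPF and PTTG1 were not called between KPT-330 and both drugs, and BUB3 is highest with KPT-330.

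Among the cyclins and CDC25 phosphatases, cyclins A2, B1 and B2 fell with KPT-330 and again with CS added. CCNB1 (ENSG00000134057, chr5:69167010-69178245, plus strand), the cyclin B1 that activates CDK1, had the highest level per length of the 58 genes in DMSO (147 CPM per kb of the deposited gene length). It stood at 369, 375 and 381 CPM in DMSO, 308, 308 and 311 with CS, 179.7, 183 and 186 with KPT-330, and 118, 120.1 and 119.6 with both drugs. The 4 groups did not overlap, and the log2 fold change was -0.28 ± 0.042 with CS, -1.03 ± 0.042 with KPT-330 and -1.65 ± 0.043 with both (adjusted p = 0.00147, 1.45e-09 and 1.13e-11). CCNA2, cyclin A2 of S phase and G2, stood at 255, 288 and 324 CPM in DMSO, 262, 237 and 220.2 with CS, 152, 153 and 149 with KPT-330, and 81.6, 85.7 and 96.8 with both drugs. It fell to 52.4% of the DMSO mean with KPT-330 and to 30.4% with both, in groups that did not overlap with DMSO or with each other. CCNB2 fell by the same order, to 51.7% and 36.2%. CDC25C, a phosphatase that activates CDK1, fell less, with log2 fold changes of -0.25 ± 0.074 with KPT-330 and -0.66 ± 0.075 with both. The first was not called without DMSO replicate 3 (-0.17, adjusted p = 0.0847) or KPT-330 replicate 3 (-0.22, adjusted p = 0.0668). Under scaling by library size alone it was not called either (-0.088, adjusted p = 0.292). CDC25B, the phosphatase that starts CDK1 activation, stood at 74.6, 58.8 and 50.9 CPM in DMSO, 56.9, 67.3 and 75.5 with CS, 73.1, 75.6 and 78.2 with KPT-330, and 59.8, 55.7 and 47.7 with both drugs. Of the KPT-330 libraries 1 was within the DMSO range and the others just above it, and the libraries with both drugs overlapped it. It was not called against DMSO, at 0.30 ± 0.13 with KPT-330 (adjusted p = 0.0739) and -0.18 ± 0.13 with both (adjusted p = 0.27), and fell for both against KPT-330 (-0.48 ± 0.13, adjusted p = 0.0118), a call that was lost without KPT-330+CS replicate 3 (-0.39, adjusted p = 0.0533). With the GC correction over all libraries its sign with KPT-330 turned (-0.11 ± 0.036, adjusted p = 0.0153).

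All 9 kinases fell with KPT-330 and all 9 fell further with CS added. CDK1, the kinase of mitotic entry, stood at 267, 309 and 335 CPM in DMSO, 288, 269 and 259 with CS, 171, 167 and 172 with KPT-330, and 91.2, 101 and 106 with both drugs. It fell to 56% of the DMSO mean with KPT-330 and to 32.7% with both, with no overlap between those 3 groups. NEK2, a centrosome kinase, fell most of the kinases with KPT-330 and stood at 105, 117 and 123 CPM in DMSO, 102, 98 and 93.4 with CS, 47.1, 49.8 and 49.1 with KPT-330, and 31.7, 33.3 and 35.1 with both drugs. Its log2 fold change was -1.24 ± 0.066 with KPT-330 (adjusted p = 1.31e-08) and -1.78 ± 0.068 with both (adjusted p = 2.62e-10). AURKA, the Aurora kinase of the spindle poles, stood at 203, 216 and 225 CPM in DMSO, 178, 179 and 171 with CS, 108, 107 and 105 with KPT-330, and 69.6, 73.8 and 76.8 with both drugs. It fell in all 3 treatments, with log2 fold changes of -0.29 ± 0.054 with CS, -1.01 ± 0.054 with KPT-330 and -1.55 ± 0.055 with both, and no 2 of the 4 groups overlapped.

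PLK1 and AURKB, the Polo kinase of mitotic entry and the Aurora kinase of the passenger complex, fell little with KPT-330 and more when CS was added. PLK1 (ENSG00000166851, chr16:23677656-23690367, plus strand) stood at 182, 156 and 139.6 CPM in DMSO, 123, 134 and 155 with CS, 119, 119.8 and 121 with KPT-330, and 59.4, 52.5 and 48.1 with both drugs. The KPT-330 libraries lay close together, below all DMSO and CS libraries, at a mean of 75.3% of DMSO, and those with both drugs were at 33.5%. The log2 fold change was -0.41 ± 0.10 with KPT-330 (adjusted p = 0.00543) and -1.17 ± 0.11 for both against KPT-330 (adjusted p = 3.84e-06). AURKB stood at 72.6, 55.7 and 50.0 CPM in DMSO, 52.9, 59.8 and 68.3 with CS, 42.2, 41.5 and 45.6 with KPT-330, and 22.1, 20.7 and 18.5 with both drugs. Its groups divided in the same way, with a log2 fold change of -0.46 ± 0.13 with KPT-330 (adjusted p = 0.00787) and -1.08 ± 0.13 from KPT-330 to both (adjusted p = 3.6e-05). Under scaling by library size alone, PLK1 and AURKB were not called with KPT-330 (adjusted p = 0.113 and 0.105), and with the GC correction over all libraries they were -0.72 ± 0.031 and -0.70 ± 0.049. BUB1, a checkpoint kinase, stood at 249, 277 and 287 CPM in DMSO, 214, 211 and 200.2 with CS, 142, 137 and 136 with KPT-330, and 92.6, 103 and 107 with both drugs; its groups with CS, KPT-330 and both were each below DMSO. BUB1B (BUBR1) fell to 58.6% and 37.3%. PLK4, the kinase of centriole duplication, stood at 139, 159.6 and 176 CPM in DMSO, 167, 160.5 and 154 with CS, 120.1, 126 and 119.6 with KPT-330, and 90.2, 90.3 and 99.4 with both drugs. TTK (MPS1, which starts the checkpoint) stood at 64.1, 71.9 and 80.1 CPM in DMSO, 67.2, 68.4 and 64.3 with CS, 55.2, 58 and 55.1 with KPT-330, and 38.9, 40.5 and 47.8 with both drugs. These 2 fell least of the kinases, to 59% and 58.9% of the DMSO mean with both drugs.

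Of the 8 kinetochore and checkpoint genes, 7 fell with KPT-330 and BUB3 rose. CENPA (ENSG00000115163, chr2:26764289-26801067, plus strand), the centromeric histone H3 variant, stood at 52.5, 56.8 and 57.1 CPM in DMSO, 58.1, 57.4 and 54.1 with CS, 20.6, 19.5 and 20.9 with KPT-330, and 13.1, 14.3 and 13.1 with both drugs. The CS libraries overlapped DMSO, and the KPT-330 and combination libraries were each lower with no overlap; the log2 fold change of both against KPT-330 was -0.59 ± 0.065 (adjusted p = 1.71e-05). CENPF, a large kinetochore protein of G2 and mitosis, stood at 490.4, 552 and 589 CPM in DMSO, 588, 571 and 519 with CS, 230.2, 234 and 225 with KPT-330, and 194, 202 and 229 with both drugs. It fell with KPT-330 (-1.24 ± 0.079, adjusted p = 6.4e-08) and was not called between KPT-330 and both drugs (-0.14 ± 0.078, adjusted p = 0.166), whose libraries overlapped; with the GC correction over all libraries it was called (-0.26 ± 0.029, adjusted p = 3.97e-07).

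The 4 subunits of the Ndc80 complex, which binds microtubules, all fell with KPT-330 and fell again with CS added. NDC80 fell to 64.9% and 37.6% of the DMSO mean and NUF2 to 59.6% and 38%. SPC24 stood at 36.5, 32.7 and 31.2 CPM in DMSO, 36, 37.9 and 41.2 with CS, 28.5, 26.8 and 26.6 with KPT-330, and 20.1, 17.1 and 16.9 with both drugs. SPC25 stood at 36.7, 36.7 and 44.2 CPM in DMSO, 35.5, 35.9 and 34.8 with CS, 27.4, 32.1 and 28.3 with KPT-330, and 16.2, 16.5 and 16.7 with both drugs. From KPT-330 to both drugs the log2 fold change was -0.83 ± 0.083 for SPC25 and -0.60 ± 0.086 for SPC24 (adjusted p = 8.67e-06 and 0.000154). MAD2L1 (MAD2, which holds back anaphase) stood at 233, 243 and 271 CPM in DMSO, 238, 231 and 216 with CS, 166, 174 and 169 with KPT-330, and 142, 142 and 151 with both drugs. It fell with KPT-330 (-0.55 ± 0.062) and by a smaller step with CS added (-0.23 ± 0.062, adjusted p = 0.0121). BUB3 (ENSG00000154473, chr10:123154277-123170467, plus strand), the WD40 partner of BUB1 and BUBR1, stood at 342, 346 and 355 CPM in DMSO, 326, 314 and 321 with CS, 426, 438 and 432 with KPT-330, and 333, 336 and 349 with both drugs. All 3 KPT-330 libraries were above every other library, by 0.31 ± 0.044 against DMSO (adjusted p = 7.92e-05), and the level with both drugs was not called against DMSO (-0.034 ± 0.044, adjusted p = 0.54). Under scaling by library size alone, SPC24 was not called with KPT-330 (adjusted p = 0.245), and BUB3 was higher with both drugs than in DMSO (0.15, adjusted p = 0.00205).

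All 10 motors fell with KPT-330, and 9 of 10 fell further with CS added. CENPE, the kinesin that moves chromosomes to the spindle equator, stood at 168, 182 and 210.5 CPM in DMSO, 165, 157 and 142 with CS, 71.2, 73.8 and 73.5 with KPT-330, and 53, 55.2 and 61.4 with both drugs. The KPT-330 and combination libraries were lower than all DMSO and CS libraries, and the step from KPT-330 to both was -0.37 ± 0.084 (adjusted p = 0.00428). KIF20A (ENSG00000112984, chr5:138178719-138187715, plus strand; MKLP2, which carries the passenger complex to the midzone) stood at 127, 134 and 139 CPM in DMSO, 125, 126 and 120.3 with CS, 68.9, 70.7 and 70.0 with KPT-330, and 41.4, 43.9 and 43.5 with both drugs. Its 3 groups with DMSO, KPT-330 and both were apart, with -0.93 ± 0.049 for KPT-330 and -0.70 ± 0.05 for both against KPT-330 (adjusted p = 1.21e-08 and 5.17e-07). KIF23 (MKLP1 of the central spindle) stood at 143, 160.4 and 175 CPM in DMSO, 151, 144 and 136 with CS, 83, 83.8 and 82.7 with KPT-330, and 41.8, 44.6 and 48.2 with both drugs. It had the largest fall of the motors with both drugs, to 28.1% of DMSO, and KIF18A the smallest. KIF18A, which dampens chromosome movements at the spindle equator, stood at 76.9, 86.2 and 95.7 CPM in DMSO, 87.7, 79.7 and 74.2 with CS, 57.1, 64.3 and 59.6 with KPT-330, and 47.2, 52.2 and 57.5 with both drugs. Its log2 fold change was -0.52 ± 0.093 with KPT-330 (adjusted p = 0.000516) and not called between KPT-330 and both (-0.21 ± 0.093, adjusted p = 0.0981). With the GC correction over all libraries its fall with KPT-330 was -0.33 ± 0.04 and its step from KPT-330 to both was called (-0.36 ± 0.041, adjusted p = 6.41e-07), so that all 10 motors fell in that step. KIF20B stood at 147, 169 and 187 CPM in DMSO, 153, 143 and 133 with CS, 90.8, 94.8 and 89.3 with KPT-330, and 71.2, 74.1 and 86.2 with both drugs. Its step from KPT-330 to both was -0.25 ± 0.091 (adjusted p = 0.0471); with DESeq2 the adjusted p was 0.0793, and the call was lost without DMSO replicate 2, CS replicate 2 or 3, any KPT-330 replicate, or KPT-330+CS replicate 1 or 2 (adjusted p from 0.0503 to 0.147). KIF15 (which backs up KIF11 in spindle assembly) stood at 92.3, 103 and 109 CPM in DMSO, 108, 102 and 94.3 with CS, 63.7, 64.1 and 68.3 with KPT-330, and 42.6, 42.3 and 43.8 with both drugs, and its step was -0.61 ± 0.068 (adjusted p = 2.16e-05). KIF11, the Eg5 motor that separates spindle poles, fell to 58.6% and 36.4%, KIF14 to 50.5% and 32.5%, KIF2C (MCAK, a microtubule depolymerase) to 60.6% and 32.9%, and KIF4A (a chromokinesin) to 55.5% and 34.6%.

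The 6 spindle proteins had the largest median fall with KPT-330 among the subgroups of 3 or more genes (-1.07), with log2 fold changes from -1.21 (DLGAP5) to -0.73 (NUSAP1). TPX2, which activates AURKA on spindle microtubules, stood at 359, 394 and 442 CPM in DMSO, 379, 376 and 342 with CS, 189, 192 and 194 with KPT-330, and 131, 143 and 144 with both drugs. Every KPT-330 library was at or below 194 CPM and every DMSO library at or above 359 CPM, with -1.05 ± 0.073 for KPT-330 and -0.46 ± 0.073 for both against KPT-330 (adjusted p = 1.45e-07 and 0.000314). ASPM, which focuses spindle poles, fell to 45.8% with KPT-330 and 33.9% with both, HMMR to 46.8% and 26.8%, DLGAP5 (HURP) to 43.1% and 25.7%, PRC1 (which bundles midzone microtubules) to 56% and 38.4%, and NUSAP1 to 60.3% and 39.1%. DLGAP5 was the spindle gene that also fell with CS alone (-0.37 ± 0.084, adjusted p = 0.0172).

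For the passenger complex, BIRC5 (survivin) and CDCA8 (borealin) fell with KPT-330 and INCENP, its scaffold, was not called (-0.23 ± 0.14, adjusted p = 0.192). All 3 fell with CS added, with log2 fold changes of -1.19 ± 0.11 for BIRC5, -0.97 ± 0.14 for INCENP and -0.87 ± 0.049 for CDCA8 (adjusted p = 5.52e-06, 0.000198 and 9.9e-08). With the GC correction over all libraries INCENP was called with KPT-330 (-0.63 ± 0.04, adjusted p = 1.62e-10).

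In ubiquitin and separase control, CDC20, the activator of the anaphase-promoting complex, stood at 142, 127 and 103 CPM in DMSO, 88.6, 100.4 and 110.0 with CS, 88.5, 81.5 and 86.5 with KPT-330, and 45.1, 48.1 and 39.1 with both drugs. The KPT-330 libraries were below the DMSO libraries and just below the CS libraries, and those with both drugs were lower than all others. The log2 fold change was -0.54 ± 0.11 with KPT-330 and -0.96 ± 0.11 for both against KPT-330 (adjusted p = 0.00147 and 3.45e-05). ESPL1, separase itself, had the lowest level per length (7.38 CPM per kb in DMSO) and stood at 75.8, 65.5 and 55.5 CPM in DMSO, 49.8, 59.5 and 69.8 with CS, 52.6, 46.4 and 52.1 with KPT-330, and 25.4, 23.3 and 19.6 with both drugs. The KPT-330 libraries were below DMSO and those with both drugs lower than all others, with log2 fold changes of -0.38 ± 0.13 (adjusted p = 0.0299) and, from KPT-330 to both, -1.15 ± 0.14 (adjusted p = 3.45e-05). The first call of ESPL1 was lost without DMSO replicate 1 or 2, CS replicate 2 or any KPT-330 replicate (adjusted p from 0.0535 to 0.151). In edgeR fits it was also lost under scaling by library size alone (adjusted p = 0.255) and without the filter (0.139). The same held with the replicate block (0.0542) and with the compared groups alone (0.0524). PTTG1 (ENSG00000164611, chr5:160421822-160428744, plus strand), the securin that inhibits separase, stood at 139.5, 157 and 173 CPM in DMSO, 149.9, 142 and 131 with CS, 81.1, 76.2 and 79.1 with KPT-330, and 72.3, 75.8 and 81.7 with both drugs. It fell to 50.3% of DMSO with KPT-330 and stood at 48.9% with both, and the step between them was not called (-0.041 ± 0.079, adjusted p = 0.713). Separase thus fell when CS was added to KPT-330, and its inhibitor was not called. UBE2C, the ubiquitin-conjugating enzyme of the anaphase-promoting complex, fell to 58.9% and 29.2%, and CDCA3 to 48.9% and 27.3%.

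The 3 cytokinesis genes all fell with KPT-330 and again with CS added: ECT2, the exchange factor for RhoA, to 53.3% and 38% of DMSO, ANLN (anillin) to 61.1% and 39.9%, and RACGAP1 to 56.2% and 43.9%.

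The 5 condensin subunits had the smallest median fall with KPT-330 (-0.45) of the subgroups whose members all fell, and stood between 68.2% (NCAPH) and 81.4% (SMC2) of DMSO. SMC2, an ATPase core subunit, stood at 287, 311 and 344 CPM in DMSO, 312, 299 and 284 with CS, 252, 263 and 252 with KPT-330, and 172, 183 and 197 with both drugs. SMC4, its partner, stood at 509.7, 591 and 639.8 CPM in DMSO, 534, 496 and 463 with CS, 419, 431 and 424 with KPT-330, and 285, 296 and 323 with both drugs. For both, the KPT-330 libraries lay below the DMSO libraries and the combination libraries below those. Under scaling by library size alone SMC2 was not called with KPT-330 (adjusted p = 0.0642). NCAPD2, a HEAT-repeat subunit, stood at 518, 517 and 478 CPM in DMSO, 442, 460.0 and 469.9 with CS, 372, 356 and 362 with KPT-330, and 237, 238 and 229.6 with both drugs. NCAPH (ENSG00000121152, chr2:96335787-96373845, plus strand), the kleisin of condensin I, stood at 155, 159 and 152 CPM in DMSO, 152, 152 and 153 with CS, 106, 107 and 105 with KPT-330, and 50.9, 53.4 and 53 with both drugs. NCAPG, the second HEAT-repeat subunit, stood at 230.5, 262 and 286 CPM in DMSO, 245, 231 and 215 with CS, 191, 197 and 189.7 with KPT-330, and 87, 92.1 and 100.4 with both drugs. In all 3 the KPT-330 libraries were below DMSO and those with both drugs were lower again. NCAPH and NCAPG fell most of the condensin genes when CS was added, with log2 fold changes of -1.01 ± 0.044 and -1.05 ± 0.08 (adjusted p = 1.02e-08 and 9.54e-07), beyond their fall with KPT-330 (-0.55 ± 0.044 and -0.43 ± 0.079). SMC2 and SMC4, which condensin II shares, had -0.47 ± 0.07 and -0.49 ± 0.08 in the same step.

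MKI67, the Ki-67 protein that coats mitotic chromosomes, stood at 1092, 1192 and 1245 CPM in DMSO, 1319, 1333 and 1235 with CS, 433, 419.7 and 430.0 with KPT-330, and 257, 273 and 281 with both drugs. The CS libraries overlapped DMSO, and the KPT-330 and combination libraries were apart from DMSO and from each other, with -0.66 ± 0.06 for the step from KPT-330 to both (adjusted p = 3.75e-06). TOP2A, the topoisomerase that untangles sister chromatids, stood at 759, 869 and 945 CPM in DMSO, 862, 813 and 764 with CS, 422, 443 and 423 with KPT-330, and 243, 254 and 279 with both drugs. It fell to 50.0% and 30.1% of the DMSO mean, and the log2 fold change of both drugs against DMSO was -1.73 ± 0.081 (adjusted p = 1.72e-09).

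Set side by side, the kinase, kinetochore, motor and condensin subgroups differed in how their fall divided between KPT-330 and the added CS. Members are not replicates, and these differences were not tested. With KPT-330 the median log2 fold change was -0.77 for kinases (range -1.24 to -0.36), -0.59 for kinetochore genes (-1.45 to 0.31), -0.86 for motors (-1.36 to -0.52) and -0.45 for condensin (-0.55 to -0.30). With both drugs against DMSO it was -1.54 for kinases, -1.32 for kinetochore genes, -1.57 for motors and -1.10 for condensin. From KPT-330 to both it was -0.54, -0.60, -0.66 and -0.63 in that order. The condensin median thus lay nearest to 0 of the 4 with KPT-330; it was -0.27 with the GC correction over all libraries and -0.29 under scaling by library size alone. In the uncorrected values the medians of the added step lay between -0.66 and -0.54 in all 4. Within the kinetochore subgroup, genes ran from -1.45 (CENPA) to 0.31 (BUB3).

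**Figure D4:**
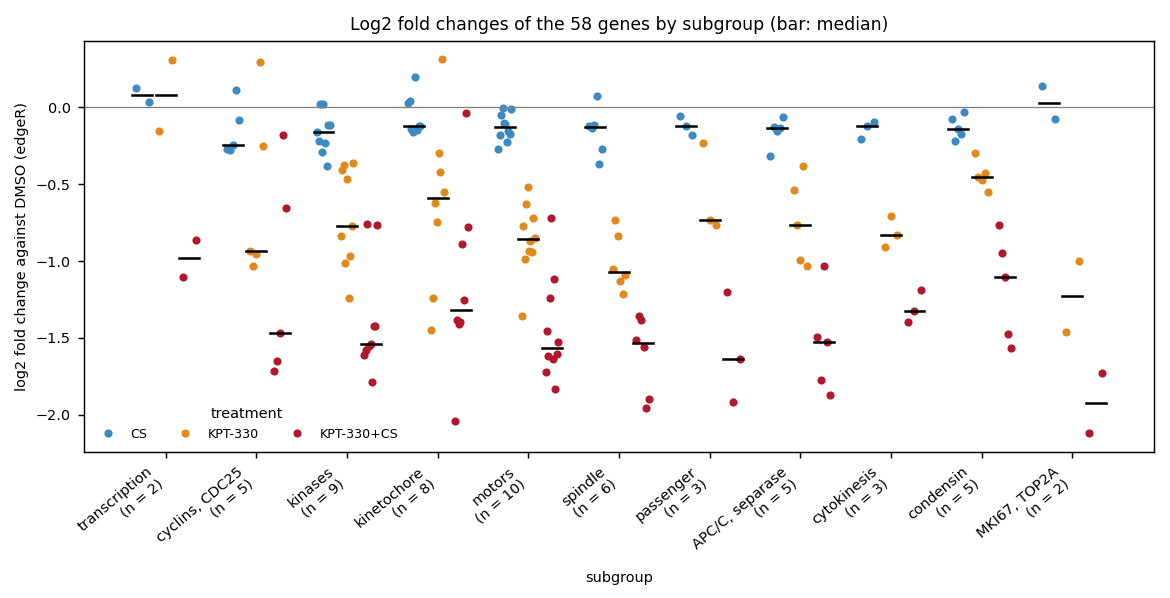
Log2 fold change against DMSO (y axis) of each gene (points) in 11 subgroups (x axis) for CS, KPT-330 and both drugs; black bars are medians. The CS points lie near 0, and the medians for both drugs lie below those for KPT-330 in every subgroup.

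With CS alone, the 7 genes that fell were the cyclins CCNB1 and CCNB2 (-0.24 ± 0.057), the kinases AURKA, BUB1 and NEK2 (-0.23 ± 0.065), the spindle gene DLGAP5 and CDCA8 (-0.18 ± 0.049). No kinetochore gene or condensin subunit was called by edgeR, DESeq2, the likelihood ratio test or voom, although edgeR gave 2 of 8 and 3 of 5 lower at an unadjusted p of 0.05. MKI67 and CENPF had log2 fold changes of 0.14 ± 0.059 and 0.041 ± 0.077 (adjusted p = 0.174 and 0.827). The count depended on the setting: it was 34 with the GC correction within groups (where 14% of all tested genes were called lower), 23 without DMSO replicate 1 (8.98%), 3 without DMSO replicate 2, CS replicate 2 or CS replicate 3 (2.07%, 2.01% and 1.8%), and 0 with the DMSO and CS libraries alone in the fit (0.508% of all genes). In that last fit 11 of the 58 were lower at an unadjusted p of 0.05. No share of all tested genes at an unadjusted p of 0.05 is given here. Counts at that threshold therefore stand without a background. The main fit shares its spread over all 4 groups. The coefficient of variation between libraries was 2.88% with KPT-330, 15.9% in DMSO and 11.8% with CS. How this bore on the count was not tested.

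CS lowered the G2/M genes further in the presence of KPT-330 than in its absence. The interaction, which is the log2 fold change of CS with KPT-330 minus that without it, was negative and called for 45 of 58 genes, where 6.62% of all tested genes were called lower and 8.04% higher, and its median was -0.52 against 0.014 for all tested genes. No gene was called with a positive interaction by the 4 tools, nor at an unadjusted p of 0.05 by edgeR. In this fit it was largest for MYBL2 (-1.21 ± 0.31, adjusted p = 0.0206), AURKB (-1.10 ± 0.18, 0.00154), FOXM1 (-1.08 ± 0.099, 2.65e-05), BIRC5 (-1.06 ± 0.16, 0.000716) and ESPL1 (-1.01 ± 0.19, 0.00368). The longest transcripts of these 5 genes hold 52.2% to 60.5% GC. After the GC correction over all libraries the order was another: NCAPH (-1.08 ± 0.046), NCAPG (-1.04 ± 0.037) and BIRC5 (-1.04 ± 0.12) led, and AURKB was at -0.96, FOXM1 at -0.93, MYBL2 at -0.88 and ESPL1 at -0.82. The MYBL2 call was lost without the filter (adjusted p = 0.133) and without DMSO replicate 2 or 3, CS replicate 2 or KPT-330 replicate 3 (adjusted p from 0.0511 to 0.0779). At the other end were PTTG1 (0.11 ± 0.11, 0.537), KIF20B (-0.02 ± 0.13, 0.935), BUB1 (-0.077 ± 0.092, 0.614), CENPE (-0.095 ± 0.12, 0.629), MAD2L1 (-0.10 ± 0.088, 0.47) and KIF18A (-0.11 ± 0.13, 0.624), none of them called. After correction for GC over all libraries, 5 of these 6 were called negative, at -0.23 (KIF20B), -0.22 (BUB1), -0.29 (CENPE), -0.26 (MAD2L1) and -0.30 (KIF18A), with adjusted p = 0.000889, 0.000301, 5.66e-05, 6.98e-05 and 0.00064. PTTG1 was not (0.065, adjusted p = 0.753). With that correction 15.2% of all tested genes had a called negative interaction and 11.1% a called positive one. Of the 13 genes with no called interaction, 12 were called in at least 1 alternative. By subgroup the median was -0.41 for kinases (7 of 9 called), -0.56 for kinetochore genes (6 of 8), -0.59 for motors (7 of 10) and -0.49 for condensin (4 of 5). Of the 45 calls, 35 held in all 24 alternatives tried.

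**Figure D5:**
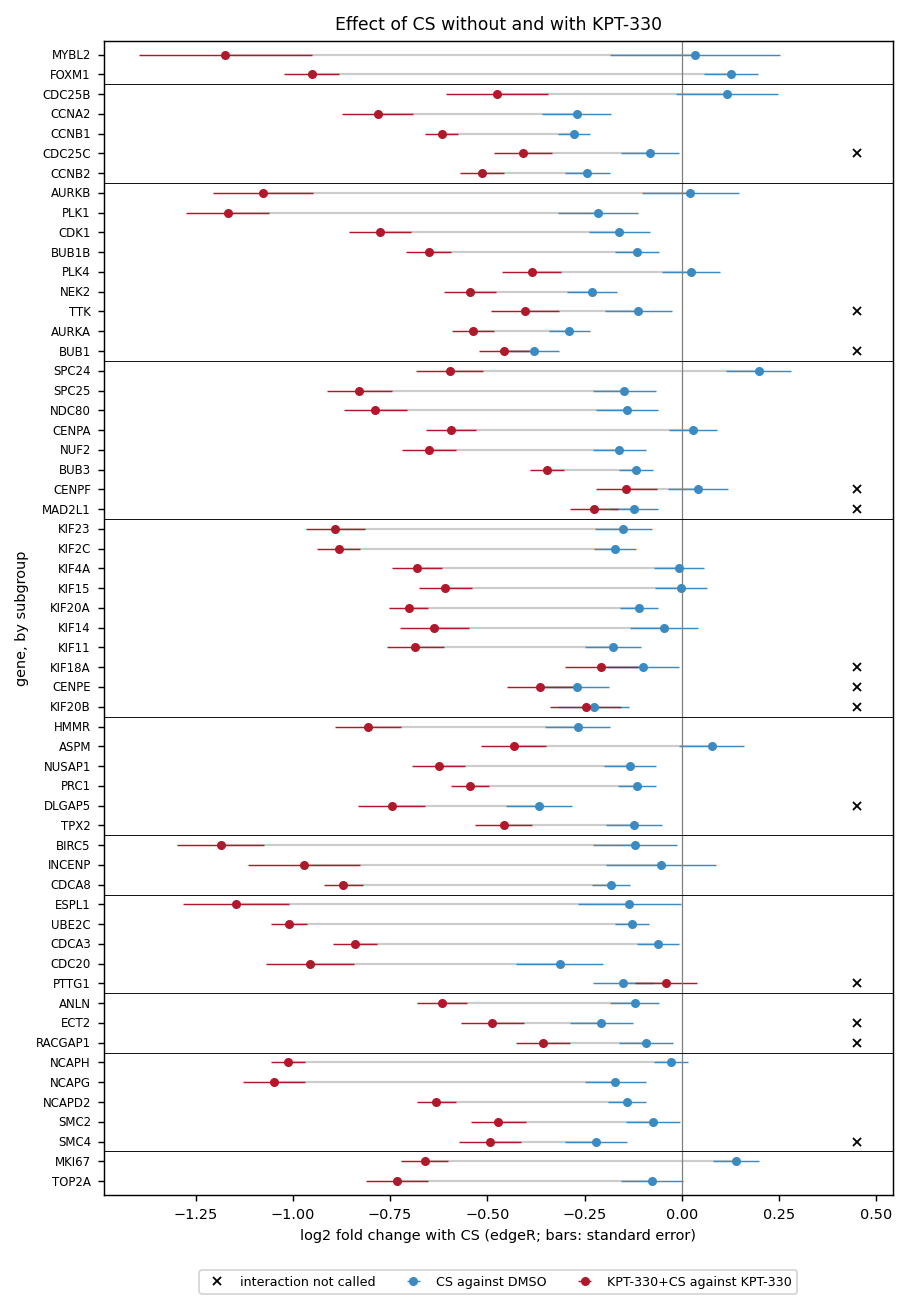
Log2 fold change with CS (x axis, bars are standard errors) of each gene (y axis, by subgroup) without KPT-330 (blue, CS against DMSO) and with it (red, both drugs against KPT-330); crosses mark genes with no called interaction. The red points lie left of the blue for all genes but PTTG1, and in these values, not corrected for GC, the gap is widest for MYBL2 (-1.21).

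GC content moved with part of this pattern. The median GC of the members was 42.7% (34.3% to 60.5%), against 47.7% for all tested genes. For the 29 members of lower GC (up to 42.3%) the median log2 fold change was -0.84 with KPT-330, -0.61 from KPT-330 to both and -0.41 for the interaction, and for the 29 of higher GC (from 43.1%) it was -0.73, -0.68 and -0.67. With the GC correction over all libraries these medians were -0.65, -0.73 and -0.58 for lower GC and -0.76, -0.75 and -0.69 for higher GC. After that correction 28 members of lower and 28 of higher GC fell with KPT-330, and 29 and 28 from KPT-330 to both. Of all tested genes, 28.2% were then called lower with KPT-330 and 25.8% from KPT-330 to both.

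Some counts may hold reads of a neighbour, since the library kit does not mark the strand. By exon annotation, PRC1 shares 34.3% of its exon bases with an antisense gene that had 462 reads over all libraries, NCAPG 33.7% with LCORL (13085 reads against its own 112380), SMC4 19% with TRIM59, and FOXM1 15.9% with ITFG2 (30110 against 75652). Processed copies with reads were few: AURKAPS1 had 585 reads, beside 81990 of AURKA, and KIF4B 441, beside 71263 of KIF4A.

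Beyond the 58, most other genes of the same phases fell with both drugs, and with KPT-330 alone fewer did. The lists named here were written with earlier results of these data known. Of all tested genes, 23.8% were called lower and 24.7% higher with KPT-330, and 26.2% and 29.3% with both drugs against DMSO. From KPT-330 to both, these shares were 17.9% and 19.7%, and 6.62% of all tested genes had a called negative interaction. Of 89 tested genes from 4 further lists (kinetochore; mitotic entry and exit; spindle, motors and cytokinesis; condensin II and cohesin), 54 fell and 5 rose with KPT-330 (median -0.30), 74 fell and 2 rose with both drugs against DMSO (median -0.71), and 65 fell and 2 rose from KPT-330 to both. KNL1 and SGO2, a kinetochore scaffold and a protector of centromeric cohesion, fell with KPT-330 (log2 fold changes -1.37 ± 0.087 and -1.36 ± 0.086). HJURP, the chaperone of CENPA, fell from KPT-330 to both (-1.01 ± 0.058, adjusted p = 1.02e-07). Of 40 replication and G1/S genes, 16 fell and 6 rose with KPT-330 (median -0.06), whereas all 40 fell from KPT-330 to both (median -0.66) and 33 of 40 had a called negative interaction. Among them CCNE2 (cyclin E2) and ORC6 rose with KPT-330 (0.98 ± 0.11 and 0.52 ± 0.045), and CDC45 and RRM2, of the replicative helicase and of nucleotide synthesis, fell from KPT-330 to both (-1.39 ± 0.08 and -1.32 ± 0.074, adjusted p = 1.05e-07 and 8.79e-08). The added step of CS with KPT-330 had a median of -0.66 for replication genes and -0.63 for the 58 G2/M genes. With KPT-330 alone the medians were -0.06 and -0.77. This difference between lists was not tested.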

How the data were processed

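JEKO-1 cells were lysed for RNA at 48 h, and per the labels' protocols libraries came from a kit that selects poly(A) RNA and does not mark the strand. The authors deposited raw read counts per gene, aligned with STAR to hg38 and counted on Ensembl 78 genes, per the series design text. What program counted them, with which strand setting, and the versions used, were not given in the sources used here. Of the 64253 gene identifiers, 56105 were in GENCODE 44, whose exons were used for the overlaps. GC content was that of the longest GENCODE 44 transcript of each gene. CPM per kb used the gene length of the deposited table. Groups followed the labels, 3 libraries each.

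The test was that of edgeR 4.0.16 under R 4.3.3 (TMM, filterByExpr by group, robust quasi-likelihood F-test, two-sided) in 1 fit of all 12 libraries with group as the only term (8 residual degrees of freedom). This fit shares the spread over the 4 groups. Within groups the coefficient of variation between libraries (edgeR common dispersion) was 15.9% in DMSO, 11.8% with CS, 2.88% with KPT-330 and 11% with both drugs. The 7 contrasts were adjusted by Benjamini-Hochberg over 19460 genes each, and standard errors were taken from the log2 fold change and its F value. CPM used TMM-scaled library sizes. The fit was tested on simulated counts for 18115 genes of the KPT-330 and DMSO comparison. It called 55.2% of genes altered 1.5-fold, 83.6% of those altered 2-fold and 100% of those altered 4-fold, and 10 unaltered genes. In the simulation all groups had the DMSO means, apart from 200 genes altered with KPT-330. Each gene had the same dispersion in every group, and no GC trend was put in. The data differ in these points, so the simulated shares do not measure the error rates of the results. Alternatives covered the filter (none, or 1 CPM in 3 libraries), DESeq2 size factors, library size alone, limma voom (limma 3.58.1), DESeq2 1.42.0, edgeR's likelihood ratio test, a block for the replicate number, leaving out each library in turn, fitting only the compared groups, GC corrections (lowess, span 0.3) within groups and over all libraries, the block with the second of these, and a run without DMSO 3, CS 1 and KPT-330+CS 3, the libraries of lowest GC slope. Replicate numbers did not pair the libraries.

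The 58 genes, the other lists and the tests were chosen with earlier results of these data known. Any of the 58 could be named; values per library were set for 20 genes and for the members with the largest and smallest change of the kinase, kinetochore, motor and condensin subgroups in each contrast, and at most 3 called and 2 not called genes of each other list. Promoter letters were searched in RefSeq windows (GRCh38.p14). Figures were made in Python 3.11.15 (matplotlib 3.10.9).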

Additional observations from a re-analysis of the deposited data

Results flagged for a closer look

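For 45 of the 58 genes the effect of CS differed by whether KPT-330 was present, by the edgeR interaction test at an adjusted p of 0.05 or less. Of all tested genes, 6.62% had a called negative and 8.04% a called positive interaction. Each value below is the log2 fold change of CS with KPT-330 minus that without it, and all 45 were negative. For the transcription factors it was -1.08 (FOXM1) and -1.21 (MYBL2). For cyclins and phosphatases it was -0.51 (CCNA2), -0.34 (CCNB1), -0.27 (CCNB2) and -0.59 (CDC25B). Among kinases it was -0.62 (CDK1), -0.95 (PLK1), -0.41 (PLK4), -0.25 (AURKA), -1.10 (AURKB), -0.31 (NEK2) and -0.54 (BUB1B). Kinetochore genes had -0.62 (CENPA), -0.65 (NDC80), -0.49 (NUF2), -0.79 (SPC24), -0.68 (SPC25) and -0.23 (BUB3). Motors had -0.51 (KIF11), -0.59 (KIF14), -0.61 (KIF15), -0.59 (KIF20A), -0.74 (KIF23), -0.71 (KIF2C) and -0.67 (KIF4A). Spindle proteins had -0.34 (TPX2), -0.49 (NUSAP1), -0.43 (PRC1), -0.51 (ASPM) and -0.54 (HMMR). The passenger complex had -0.92 (INCENP), -1.06 (BIRC5) and -0.69 (CDCA8). In ubiquitin and separase control the values were -0.64 (CDC20), -0.88 (UBE2C), -1.01 (ESPL1) and -0.78 (CDCA3), and ANLN had -0.50. Condensin had -0.40 (SMC2), -0.49 (NCAPD2), -0.88 (NCAPG) and -0.99 (NCAPH). MKI67 and TOP2A had -0.80 and -0.65. The calls of AURKA, BUB3, CCNB2, CDC20, CDC25B, INCENP, MYBL2, NEK2, PLK4 and TPX2 were lost in at least 1 alternative, and the other 35 were not.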

How the results depend on the processing

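No called value of a member reversed, and 48 of 54 calls with KPT-330, 55 of 56 with both drugs against DMSO, 53 of 55 against KPT-330, 56 of 56 against CS and 35 of 45 interactions held in every alternative; of the 7 calls with CS, none did. The calls lost somewhere were AURKB, CDC25C, ESPL1, PLK1, SMC2 and SPC24 with KPT-330, MYBL2 with both drugs against DMSO, and CDC25B and KIF20B against KPT-330. The cause of these changes was not tested. Each member had at least 536 reads in every library; whether depth or the number of libraries limited the calls was not tested.

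With library size alone, the median log2 fold change with KPT-330 was -0.61 for all members, -0.61 for kinases, -0.43 for kinetochore genes, -0.70 for motors and -0.29 for condensin, and 2 members were higher. With both drugs against DMSO it was -1.27, -1.36, -1.13, -1.38 and -0.92 in the same order, with 1 member higher (BUB3, 0.15), and against CS -1.15, -1.18, -1.05, -1.32 and -0.84, with 1 higher; with CS, 1 was higher. With DESeq2 size factors 4 members were lower with CS. The stricter filter gave 1 member higher with both drugs against CS. In the fit of the compared groups alone, 0 members were lower with CS. Of all tested genes, library size alone called higher 34.2% with KPT-330, 39.1% with both drugs against DMSO, 33.7% against CS and 7.01% with CS. DESeq2 size factors called 3.39% lower with CS, and the compared groups alone 0.508%. The stricter filter called 29.9% higher with both drugs against CS.

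With the GC correction within groups, 3 members were higher with KPT-330, 34 lower and 4 higher with CS, and 3 lower with CS against KPT-330. Of all tested genes, 32.4% were higher with KPT-330, 14% lower and 9.91% higher with CS, and 30.9% lower with CS against KPT-330. With the correction over all libraries, 30 were lower and 3 higher with CS, where 13.6% of all tested genes were lower and 9.87% higher. Medians with KPT-330 were -0.28 for the transcription factors, -0.45 for kinetochore genes and -0.27 for condensin, and CDC25B turned to -0.11. From KPT-330 to both they were -0.74 for all members, -0.66 for kinases and -0.77 for motors, and for the interaction -0.66, -0.58 for kinases, -0.68 for kinetochore genes and -0.70 for motors. With the replicate block added to that correction, 29 were lower and 3 higher with CS (12.1% and 8.84% of all tested genes) and the medians were the same to 2 decimals. Without the 3 libraries of lowest GC slope, the kinase median of the interaction was -0.51.

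Replicate numbers did not pair the libraries: of 18 correlations between same-numbered libraries, from -0.384 to 0.401, 2 were over 0.1, and 3 of 12 libraries correlated best with their own number. With the replicate block alone, 52 members were lower and 1 higher with KPT-330, 5 lower with CS, 56 lower with both drugs against DMSO and 54 against KPT-330, and 39 interactions were called. In that fit 22.2% of all tested genes were lower and 22.7% higher with KPT-330, and 2.87% lower with CS. With both drugs 24.8% were lower against DMSO and 15.7% against KPT-330. The interaction was called negative for 4.76% and positive for 5.3%. Leaving out 1 library gave 3 to 23 members lower and 0 to 1 higher with CS (23 without DMSO replicate 1, 1 higher without DMSO replicate 3) and 1 to 2 higher with KPT-330 (2 without DMSO replicate 1). Without DMSO replicate 1, 8.98% of all tested genes were lower with CS and 26.9% higher with KPT-330. Without DMSO replicate 3, 4.37% were higher with CS. The kinetochore median with both drugs was -1.22 without DMSO replicate 3. Restricting the promoter search to the bases before the start gave CHR letters in 28 of the 50 matched genes (56%), against 17.2% of 27305 genes with a window.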

Other observations

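Of 20 known regulators of G2/M promoters, 9 fell and 4 rose with KPT-330 (median log2 fold change -0.15), and 6 fell and 1 rose from KPT-330 to both drugs (median -0.09). Of all tested genes, 23.8% were called lower and 24.7% higher with KPT-330, and 17.9% and 19.7% from KPT-330 to both. TFDP2, a dimer partner of E2F factors, rose with KPT-330 by 1.78 ± 0.059 (adjusted p = 3.15e-10, edgeR) and LIN37, a MuvB subunit, by 0.97 ± 0.23 (adjusted p = 0.00352). RBL1 (p107) fell with it (-0.58 ± 0.07, adjusted p = 2.15e-05). E2F8 and E2F1 fell from KPT-330 to both (-1.11 ± 0.062 and -0.97 ± 0.13, adjusted p = 8.09e-08 and 7.61e-05). CDKN1A, the cyclin-dependent kinase inhibitor p21, rose with CS by 0.63 ± 0.14 (adjusted p = 0.0129).

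Among the 14 genes of condensin II and cohesin, which are part of the 89 other G2/M genes, 10 fell and 1 rose with KPT-330 (median -0.27), and 8 fell from KPT-330 to both (median -0.28). The shares of all tested genes were 23.8% lower and 24.7% higher with KPT-330, and 17.9% lower from KPT-330 to both. ESCO2, which acetylates cohesin in S phase, fell in both comparisons (-0.83 ± 0.097 and -1.07 ± 0.1, adjusted p = 1.49e-05 and 5.1e-06). CDCA5 (sororin, which protects cohesion) fell from KPT-330 to both (-0.89 ± 0.091, adjusted p = 9.95e-06). STAG2, a cohesin subunit, was not called with KPT-330 or in that step (0.0062 ± 0.082 and -0.13 ± 0.082).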
